A study of Mus musculus with 7 samples.

Results

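The regions described here are the PU.1 and MITF peaks around 7 mouse genes, the Myc network genes Myc, Max and Mxd1, the hypoxia genes Hif1a and Vhl, and Yy1 and Limd1. A peak was taken when its centre lay in the gene or within 100 kb of either end on mm9, and for Myc the flank was extended to 500 kb downstream. The windows held 165 of the 76243 PU.1 peaks in MPs, 161 of 71941 at 36 h and 163 of 77072 in OCs, and 19 of 5413, 10 of 3540 and 15 of 4443 MITF peaks at the same times. Merging overlapping peaks of the 6 lists gave 224 loci of 102877 in all.

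The cells came from the bone marrow of C57BLACK6 mice of 4 to 6 weeks, and all of them received CSF1 at 50 ng/ml for 3 days. MPs, the myeloid precursors, received nothing more, whereas RANKL at 100 ng/ml was given for 36 h in the intermediate group and for 72 h in OCs, the osteoclasts. By the study's methods, cells given RANKL were also moved to adherent plates and kept in CSF1. They thus differed from MPs in more than RANKL. ChIP-Seq, which recovers and sequences the chromatin fragments bound by a protein, was done with 5 µg of antibody to PU.1 or MITF at each time and with non-specific IgG in MPs. Each condition was a single library, so that no difference below has a replicate check. The lists hold no expression values, and the cell type could not be compared with its markers.

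PU.1 is an ETS factor of the myeloid lineage that recognizes purine-rich sites around the letters GGAA, and MITF, of the E-box binding helix-loop-helix family, is needed for osteoclast differentiation. MYC binds E-boxes as a dimer with MAX, and MXD1 competes with MYC for MAX and represses its targets. HIF1A is the oxygen-regulated subunit of the hypoxia-inducible factor, and VHL is the substrate-binding part of the ubiquitin ligase that marks hydroxylated HIF1A for degradation. LIMD1, a LIM-domain scaffold protein, links VHL to the prolyl hydroxylases and also binds TRAF6, an adaptor of RANK signalling. YY1 is a zinc finger factor that activates or represses depending on its partners. In macrophages and osteoclasts both MYC and HIF1A are known for their part in the metabolic changes that follow activation.

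The peak with the highest PU.1 score at each gene is shown first, because these loci carry most of the values below. Sequences are the mm9 plus strand of the deposited peak, and capitals mark motifs on either strand. One is GAGGAA, a core of the PU.1 site. The others are E-boxes of the kind bound by MITF, of which CACGTG is the palindromic form. The letters CACATG are the other form.
Myc, chr15:61983886-61984036: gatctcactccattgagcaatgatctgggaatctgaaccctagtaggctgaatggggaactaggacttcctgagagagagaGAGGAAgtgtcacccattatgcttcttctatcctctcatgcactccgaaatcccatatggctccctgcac
Max, chr12:78044158-78044308: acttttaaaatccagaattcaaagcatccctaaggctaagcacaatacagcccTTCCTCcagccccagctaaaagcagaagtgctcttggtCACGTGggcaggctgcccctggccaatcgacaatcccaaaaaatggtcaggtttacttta
Mxd1, chr6:86615928-86616078: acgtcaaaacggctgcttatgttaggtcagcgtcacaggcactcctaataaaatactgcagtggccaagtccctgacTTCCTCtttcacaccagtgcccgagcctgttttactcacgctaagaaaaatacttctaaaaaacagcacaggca
Hif1a, chr12:74982554-74982704: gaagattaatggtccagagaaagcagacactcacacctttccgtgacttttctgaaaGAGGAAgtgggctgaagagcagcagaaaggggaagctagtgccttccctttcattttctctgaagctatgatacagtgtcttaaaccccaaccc
Vhl, chr6:113509641-113509791: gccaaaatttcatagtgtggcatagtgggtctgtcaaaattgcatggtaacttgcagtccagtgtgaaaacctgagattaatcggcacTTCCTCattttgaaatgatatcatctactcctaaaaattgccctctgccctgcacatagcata
Yy1, chr12:109999541-109999731: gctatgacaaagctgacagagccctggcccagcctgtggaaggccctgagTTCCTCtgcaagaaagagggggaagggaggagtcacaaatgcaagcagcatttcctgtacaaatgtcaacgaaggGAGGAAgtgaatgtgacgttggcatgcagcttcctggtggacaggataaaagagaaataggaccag
Limd1, chr9:123389855-123390005: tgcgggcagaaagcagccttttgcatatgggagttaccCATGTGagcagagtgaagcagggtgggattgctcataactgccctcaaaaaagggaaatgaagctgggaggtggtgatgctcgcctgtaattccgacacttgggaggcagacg
GAGGAA on either strand was found in 6 of these 7 peaks and was absent from that of Limd1, which held the second form of E-box on the minus strand. CACGTG, the E-box shared by MYC and MITF, was found in the peak of Max alone.

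Of the 7 peaks, those of Max and Mxd1 lay in introns of these genes, 19.0 and 3.2 kb downstream of the TSS, and that of Limd1 lay 2.1 kb downstream of its TSS. The Myc peak lay 167.0 kb downstream of its TSS, in an intron of the non-coding gene Pvt1. With upstream distances written as negative, those of Hif1a, Yy1 and Vhl lay at -19.7, -31.5 and -64.2 kb from their TSS, the last in an intron of Fancd2, which encodes a DNA repair protein. A window says only where a peak is, and which gene a distal locus acts on was not measured.

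Peak scores are tags scaled to a common library size. In each list they were whole multiples of the worth of 1 tag, between 0.9734 and 1.7058 in the PU.1 and MITF lists, which gave back the tags of each peak. The lowest peak of these 6 lists held 6 to 10 tags, and a locus below this does not appear in a list. PU.1 peaks were at most 150 bp wide in MPs and OCs and 190 bp at 36 h. In the MITF 36 h list 59.97% of peaks were wider than 150 bp, and these scored a median of 2.13 times the mean of their MP and OC peaks against 0.816 times for the 150 bp peaks. MITF scores at 36 h are therefore given with the peak's width. Tests of MITF tags at 36 h use the median ratio of all pairs, which mixes both kinds of peak, and do not measure a change of level. The IgG list had 349 peaks, none in the windows (0 of 224 loci overlapped one).

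PU.1 peaks were about as many at each time, and the Myc region had more than any other window. It had 59 PU.1 peaks in MPs, 59 at 36 h and 56 in OCs over 605.0 kb, and 17, 16 and 17 of them lay within 100 kb of the gene. The Vhl window had 26, 25 and 27, Limd1 24, 19 and 18, and Mxd1 17, 17 and 19. Hif1a had 16, 14 and 15 PU.1 peaks, Max 13, 14 and 12, and Yy1 10, 13 and 16. The numbers differed most between MPs and OCs at Yy1 and Limd1, and the peaks behind this are described with these genes. Set beside 22367 protein-coding genes with the same 100 kb flanks, where the median was 12 PU.1 peaks in MPs, 11 at 36 h and 12 in OCs, Vhl stood at the 92.7, 92.7 and 93.1 percentile. Max stood at 55.8, 61.3 and 50.9. These positions describe density near a gene, and only 2 of the Vhl window's peaks in each list had Vhl as the nearest coding TSS.

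MITF peaks were few, and most in number in the long Myc window, with 11 in MPs, 5 at 36 h and 9 in OCs. Within 100 kb of the gene, the flank used for the others, Myc had 6, 1 and 5, so that at 36 h it had no more than Hif1a, Vhl or Yy1. Among all coding genes given the same long downstream flank, the counts of the long window stood at the 99.7, 96.3 and 99.7 percentile. The counts within 100 kb stood at 99.5, 75.4 and 99.5 among all coding genes with 100 kb flanks. Yy1 had 2, 1 and 1 MITF peaks, Vhl 2, 1 and 1, Limd1 1, 2 and 2, and Hif1a 1 at every time. Max had 1 in MPs, 0 at 36 h and 1 in OCs, and Mxd1 had 1 in MPs only. Every one of the 24 loci with a MITF peak also had a PU.1 peak in at least 1 list, and 6 of them had MITF in all 3 lists.

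**Figure D1:**
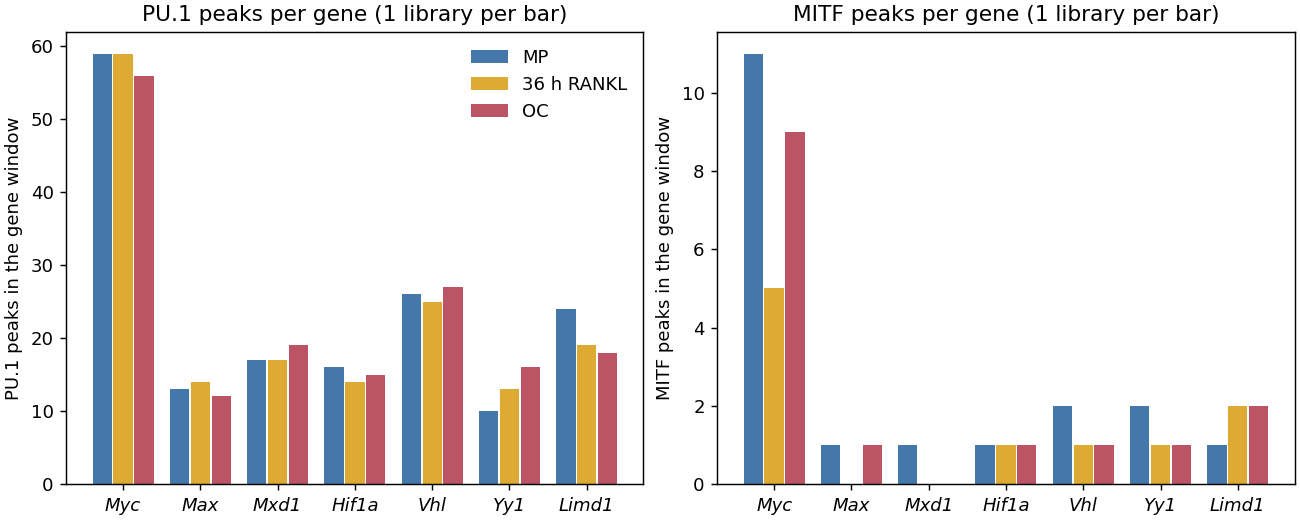
Number of PU.1 peaks (left) and MITF peaks (right) in the window of each gene, 1 bar per library, in MPs, at 36 h of RANKL and in OCs. Myc has 56 to 59 PU.1 peaks and 5 to 11 MITF peaks in a window of 605.0 kb, and the windows of the other genes span 207.7 to 246.2 kb.

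At Myc the strongest locus lay in Pvt1, 167.0 kb downstream of the TSS, and its PU.1 score was 290.0 in MPs, 248.3 at 36 h and 265.8 in OCs. These were 170, 168 and 181 tags. The MITF score at this locus was 34.3 in MPs, 103.2 at 36 h in a peak of 206 bp, and 32.0 in OCs. PU.1 tags stayed close to the median ratio of all peaks, with a log2 fold change of -0.10 from MPs to OCs (adjusted p = 1, exact binomial test). MITF tags gave 0.00 for that contrast (33 and 28 tags, adjusted p = 1, exact binomial test). From MPs to 36 h the MITF tags, 33 and 106, gave 0.89 against the median ratio, short of the 2-fold limit (adjusted p = 0.0141, exact binomial test). Both factors were called there at all 3 times, and in these libraries the difference between MPs and OCs was within sampling noise.

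**Figure D2:**
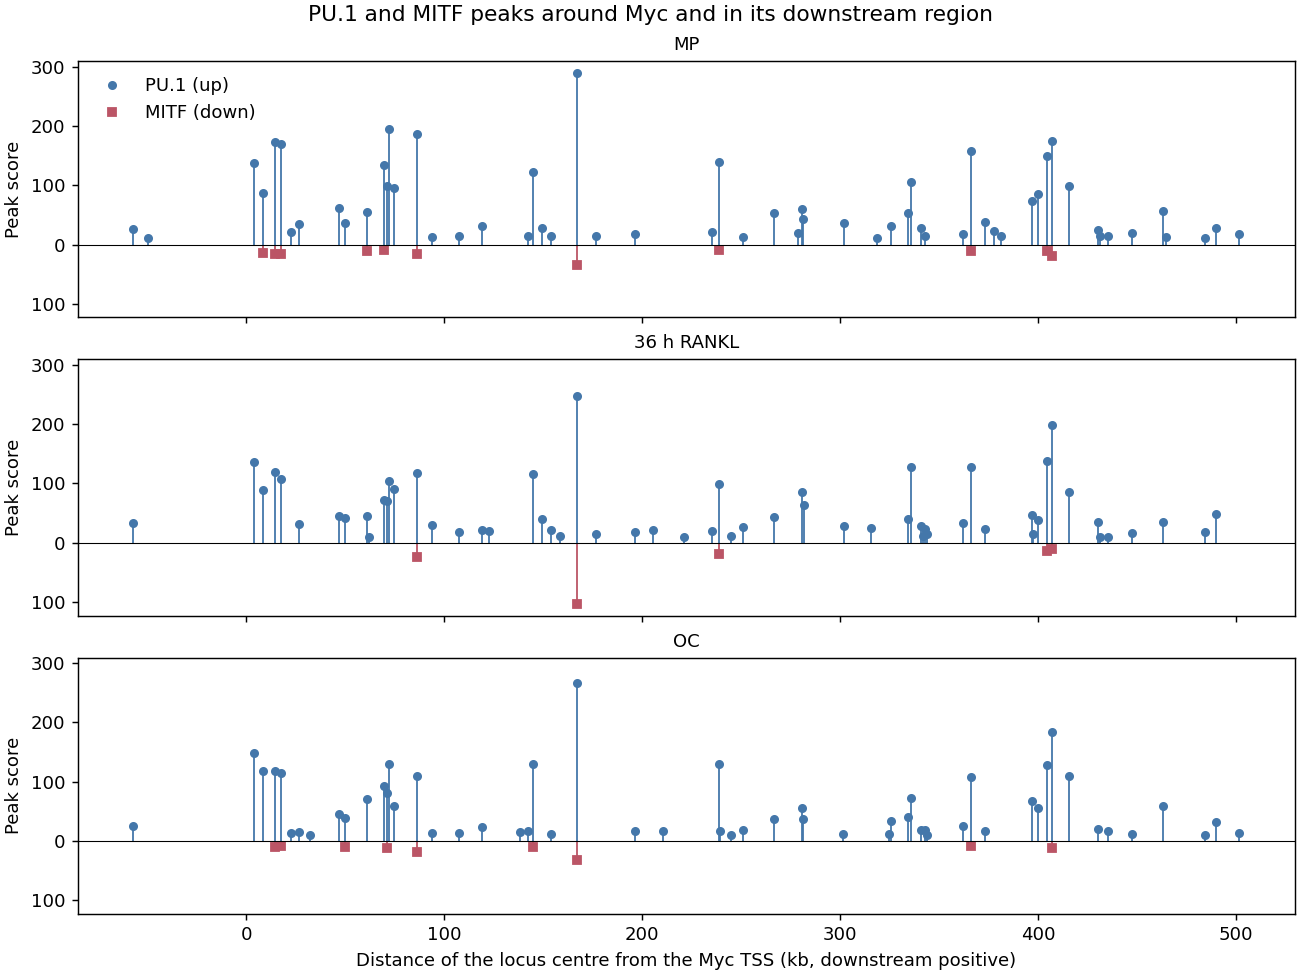
Peak scores of PU.1 (up) and MITF (down) against the distance in kb from the Myc TSS, 1 panel per time. The locus at 167.0 kb is the highest in every panel, with PU.1 scores of 290.0, 248.3 and 265.8, and MITF peaks stand under tall PU.1 peaks.

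The Myc window held 77 loci, of which 51 lay in introns of Pvt1, 25 were intergenic and 1 lay within Myc. PU.1 was called in all 3 lists at 42 of them. The locus in the Myc gene, 3.9 kb downstream of the TSS, scored 138.2 in MPs, 136.0 at 36 h and 148.3 in OCs, with no MITF peak. It is shown because the ChIP-qPCR segment that the study designed for Myc, chr15:61820862-61820936 with 75 bp, lies in it.
Myc, chr15:61820810-61820960: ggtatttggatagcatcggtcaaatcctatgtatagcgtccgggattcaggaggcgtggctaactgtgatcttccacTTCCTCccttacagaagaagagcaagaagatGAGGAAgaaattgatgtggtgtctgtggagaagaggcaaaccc
GAGGAA was found 2 times in this peak. No PU.1 peak of any list lay within 1 kb of a Myc TSS.

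MITF peaks were spread over 14 loci of the Myc window, 3 of them with MITF at every time. At 86.1 kb from the TSS the PU.1 score was 185.9 in MPs, 118.3 at 36 h and 110.1 in OCs, and the MITF score was 15.6, 23.4 (168 bp wide) and 18.3. PU.1 was lower at 36 h and in OCs than in MPs at this locus, but the log2 fold change of -0.73 from MPs to OCs did not pass the adjusted limit (adjusted p = 0.116, exact binomial test). At 407.1 kb, PU.1 scored 174.0, 198.1 and 183.6, and MITF 19.7, 10.7 (150 bp wide) and 12.6. The MITF pair from MPs to 36 h there was called lower (19 and 11 tags, log2 fold change -1.58 against the median ratio of 1.737, adjusted p = 0.0273, exact binomial test). That median ratio comes mostly from the wide 36 h peaks, and with the 150 bp peaks alone the pair was no longer called. Other MITF loci were called at fewer times. At 239.0 kb MITF scored 9.3 in MPs and 19.5 at 36 h (181 bp wide) with no peak in OCs. At 14.4 kb it scored 15.6 in MPs and 10.3 in OCs, and at 17.7 kb 16.6 and 9.1, with no peak at 36 h at either. PU.1 at these last loci scored 172.3 and 168.9 in MPs, 119.7 and 107.9 at 36 h, and 118.9 and 114.5 in OCs. The remaining 8 MITF loci had scores of 9.1 to 13.6, near the lowest score of the lists. The 13.6 came from a 36 h peak of 150 bp. At such scores a missing peak at another time does not show that MITF was absent.

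Singled out after its values were seen, the PU.1 locus 72.3 kb downstream of the Myc TSS had 194.5 in MPs, 104.9 at 36 h and 130.7 in OCs, with no MITF peak. Its log2 fold change from MPs to 36 h was -0.77 (adjusted p = 0.0368, exact binomial test), short of the 2-fold limit. Over the 47 Myc pairs between MPs and OCs the median log2 fold change was -0.10, with 18 pairs above the median ratio of all peaks and 29 below, and none was called. Of these 47 pairs 9 had an unadjusted p under 0.05 in the exact binomial test, a larger share than the 7.84% of all pairs. All 9 lay below the median ratio, that is, lower in OCs. Most were tall peaks, and pairs with many tags reach such a p more readily. Tall peaks were fewer in OCs in the whole lists too. Peaks of 200 or more were 1359 in MPs and 784 in OCs, and those of 100 to 200 were 6194 and 5910. Whether the direction is particular to Myc was not tested.

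At Max the intronic locus 19.0 kb downstream of the TSS had PU.1 scores of 208.1 in MPs, 140.4 at 36 h and 160.1 in OCs. MITF scored 14.5 in MPs and 12.6 in OCs and was not called at 36 h. MPs had the highest value of both factors, but PU.1 was not called changed (log2 fold change -0.36 from MPs to OCs, adjusted p = 0.69, exact binomial test). The peak nearest the Max TSS, 134 bp upstream, was weak, with 13.6 in MPs, 19.2 at 36 h and 19.1 in OCs. A locus at -85.2 kb, singled out after its values were seen, went from 29.0 in MPs to 47.3 at 36 h and 66.1 in OCs. Its 17 and 45 tags in MPs and OCs gave a log2 fold change of 1.21, which did not pass the adjusted limit (adjusted p = 0.206, exact binomial test).

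At Mxd1 the intronic locus 3.2 kb downstream of the TSS had PU.1 scores of 197.9 in MPs, 181.8 at 36 h and 204.1 in OCs, all within sampling noise of each other (log2 fold change 0.07 from MPs to OCs, adjusted p = 1, exact binomial test). MITF was called in MPs only, with a score of 16.6. A second locus in the gene, at 8.4 kb, had 114.3, 106.4 and 135.1 with no MITF peak. No PU.1 peak lay within 1 kb of the TSS.

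At Hif1a the strongest locus lay at -19.7 kb, with PU.1 scores of 259.3 in MPs, 209.9 at 36 h and 205.6 in OCs. MITF was called there at all 3 times, with 33.2 in MPs, 59.4 at 36 h in a peak of 186 bp, and 25.1 in OCs. Values in MPs were the highest for PU.1, though neither factor differed between MPs and OCs beyond sampling noise (log2 fold changes -0.31 and -0.30, adjusted p = 0.706 and 1, exact binomial test). The ChIP-qPCR segment of Hif1a, chr12:74982606-74982665, lies within this locus, whose sequence is given above. It was the only MITF locus of the Hif1a window.

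Hif1a was also the gene with the strongest PU.1 peak at its TSS. Its centre lay 13 bp upstream of the TSS, and it scored 95.5 in MPs, 82.8 at 36 h and 101.3 in OCs, without MITF. The values were close at the 3 times (log2 fold change 0.11 from MPs to OCs, adjusted p = 1, exact binomial test).
Hif1a TSS, chr12:75002278-75002428: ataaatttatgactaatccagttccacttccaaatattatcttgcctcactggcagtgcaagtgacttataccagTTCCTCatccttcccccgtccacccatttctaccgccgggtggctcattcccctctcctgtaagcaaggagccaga
The peak held GAGGAA on the minus strand, written TTCCTC here.

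At Vhl the locus that was strongest in MPs, in Fancd2, was the only one of the windows whose PU.1 tags were called changed. Its score was 184.2 in MPs, 72.4 at 36 h and 130.7 in OCs, or 108, 49 and 89 tags. At 36 h 4 other loci of the window scored higher, and in OCs one at 30.3 kb had the same score. From MPs to 36 h it was lower by a log2 fold change of -1.22 (adjusted p = 0.000461, exact binomial test). OCs lay between the other two times, and neither the change from 36 h to OCs (0.75, adjusted p = 0.354) nor that from MPs to OCs (-0.47, adjusted p = 0.491) passed in the same exact test. MITF was called in MPs only, with 10.4. The locus lies nearer the TSS of Fancd2, at 7892 bp, than that of Vhl.

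Irak2, the neighbouring gene that encodes a kinase of Toll-like receptor signalling, held 18 of the 33 loci of the Vhl window, 16 in introns and 2 in exons. The strongest of them in MPs and at 36 h, 39.5 kb downstream of the Vhl TSS, had PU.1 scores of 162.1 in MPs, 110.9 at 36 h and 120.4 in OCs. MITF was called there at every time, with 9.3, 27.3 (168 bp wide) and 9.1. A further 3 Irak2 loci were above 100 in MPs, and had no MITF peak. The one at 20.9 kb scored 148.4, 85.7 and 116.0, the one at 26.4 kb 121.1, 102.0 and 117.5, and the one at 30.3 kb 102.3, 102.0 and 130.7, the last the highest of Irak2 in OCs. In the Vhl gene itself there were 2 peaks per list. One overlapped an exon 6.6 kb downstream of the TSS and scored 49.5, 37.0 and 61.7, and the other lay 1.6 kb downstream, within 1 kb of another annotated Vhl TSS, and scored 29.0, 17.7 and 20.6.

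At Yy1 both strong loci lay upstream. The first, at -31.5 kb, had PU.1 scores of 182.5 in MPs, 201.0 at 36 h and 199.7 in OCs, and MITF scores of 10.7 at 36 h (150 bp wide) and 14.8 in OCs with no MITF peak in MPs. PU.1 tags there were close at the 3 times (log2 fold change 0.15 from MPs to OCs, adjusted p = 1, exact binomial test). The ChIP-qPCR segment of Yy1, chr12:109999630-109999693, lies in this locus. At -26.3 kb PU.1 scored 163.8, 121.2 and 110.1, and MITF was called in MPs only with 9.3. The log2 fold change of PU.1 from MPs to OCs was -0.55 at this second locus (adjusted p = 0.414, exact binomial test). Another MITF peak, also 9.3 and in MPs only, lay at -92.8 kb, in an intron of Degs2, where PU.1 scored 78.5, 82.8 and 61.7.

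Behind the PU.1 peak numbers at Yy1, 10 in MPs and 16 in OCs, were mostly weak peaks. Of the 16 OC peaks 8 had no MP peak, or 50% against 22% of the whole list, and 7 of these scored 10.3 to 27.9. The highest scored 47.0 (32 tags) and was called in OCs alone, at -27.9 kb. Its centre lay 1559 bp from that of the nearest PU.1 peak of another time. Of the 10566 PU.1 loci of the genome called in OCs alone, 0.965% had this score or more. It was picked as the highest of the 21 such loci of the windows, so this share overstates how rare it is. The sequence of this locus, chosen after its value was seen, held GAGGAA on the minus strand.
Yy1, OC list only, chr12:110003206-110003356: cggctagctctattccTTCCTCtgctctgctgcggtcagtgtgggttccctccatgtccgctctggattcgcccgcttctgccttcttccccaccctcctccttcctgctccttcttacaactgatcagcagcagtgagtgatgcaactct
Another peak of the OC list alone lay 688 bp upstream of the Yy1 TSS with a score of 13.2, near the lowest of the list. In the gene, 2.4 kb downstream of the TSS, PU.1 scored 80.2, 62.1 and 72.0.

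At Limd1 the strongest PU.1 locus in MPs and at 36 h, 2.1 kb downstream of the TSS, scored 133.1 in MPs, 121.2 at 36 h and 123.3 in OCs, with no MITF peak. These values were within sampling noise (log2 fold change -0.09 from MPs to OCs, adjusted p = 1, exact binomial test). A locus at -2.9 kb scored 119.4, 116.8 and 129.2, the highest of the gene in OCs. It had MITF at 36 h (9.7, 150 bp wide) and in OCs (10.3) but not in MPs. The ChIP-qPCR segment of Limd1, chr9:123384588-123384656, ended 123 bp from this locus, which is shown for that reason.
Limd1, chr9:123384804-123384954: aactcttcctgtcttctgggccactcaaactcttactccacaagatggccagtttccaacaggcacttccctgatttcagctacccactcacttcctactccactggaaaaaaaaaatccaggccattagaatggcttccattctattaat
None of the 3 motifs in capitals occurred in it. Of the 24 PU.1 peaks at Limd1 in MPs 9 had no OC peak, or 37.5% against 21.2% of the whole list, and the PU.1 loci called in 1 list alone had a median score of 11.9 at this gene.

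The one locus where MITF was called without PU.1 of the same time lay at -16.7 kb from the Limd1 TSS, in an exon of Lars2. MITF scored 14.5 in MPs, 24.3 at 36 h (184 bp wide) and 19.4 in OCs, whereas PU.1 was called in MPs only with 34.1 (20 tags). It was also the only one of the MITF loci whose highest PU.1 score was below 40. Its sequence is shown because it differs from those of the other loci.
Limd1 -16.7 kb, chr9:123371003-123371153: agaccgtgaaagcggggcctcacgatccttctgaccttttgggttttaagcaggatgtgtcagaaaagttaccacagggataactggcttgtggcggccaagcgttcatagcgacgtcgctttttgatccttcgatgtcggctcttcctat
None of the letters marked elsewhere occurred in it. Of 4 successive pieces of 36 bases, 2 were found once in mm9 and the others up to 2 times, while all 4 pieces were unique in each of the other peaks shown. Its letters are those of a conserved stretch of large-subunit ribosomal RNA, a sequence that the genome also carries in ribosomal DNA arrays. How the lists treated reads that map to several places is not given in the sources used here, and its part in these peaks was not tested.

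**Figure D3:**
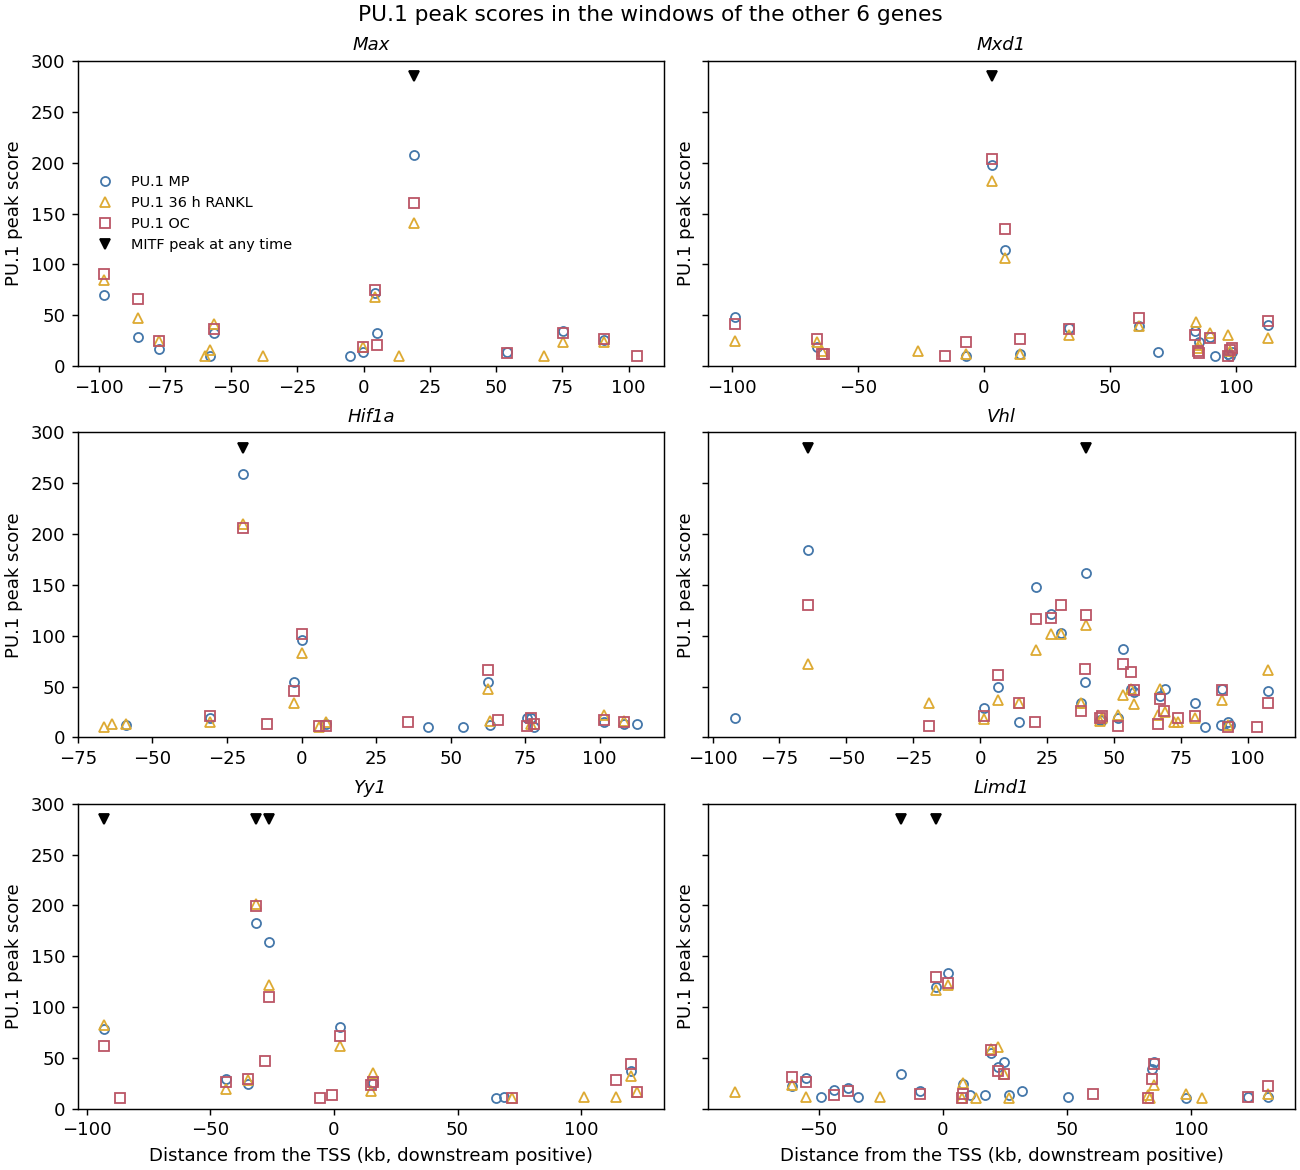
PU.1 peak scores against the distance in kb from the TSS for Max, Mxd1, Hif1a, Vhl, Yy1 and Limd1, with 1 symbol per time and a black triangle over each locus with a MITF peak at any time. The highest loci are at 19.0 kb for Max (208.1 in MPs), 3.2 kb for Mxd1 (204.1 in OCs) and -19.7 kb for Hif1a (259.3 in MPs).

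Co-binding, the overlap of a MITF and a PU.1 peak of the same time by at least 1 bp, was the rule for MITF in these windows as in the whole lists. In MPs 19 of 19 MITF peaks overlapped a PU.1 peak, against 97.9% of the whole list. At 36 h it was 9 of 10 against 93.8%, and in OCs 14 of 15 against 93.3%, and the exceptions were the Lars2 locus near Limd1. From the side of PU.1, 19 of 165 peaks overlapped MITF in MPs, which is 11.52% (95% Wilson interval 7.497 to 17.28) against 6.95% of the whole list. At 36 h 9 of 161 did, or 5.59% (2.969 to 10.28) against 4.62%, and in OCs 14 of 163, or 8.589% (5.185 to 13.9) against 5.38%. These intervals cover counting error only, and those of 36 h and OCs hold the share of the whole list while that of MPs lies above it. With lists of equal length the MP share was 7.5%, and with only peaks of at least 2 times the lowest score it was 3.061%. The share of the whole list was not recomputed at either setting, so these values cannot be set beside its 6.95%. Myc carried 11 of the 19 in MPs and 9 of the 14 in OCs.

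MITF peaks stood mostly at PU.1 peaks of high score. Of the window peaks with a PU.1 score of 100 to 200, 12 of 23 had MITF in MPs, 5 of 19 at 36 h and 10 of 24 in OCs, against 48%, 38.9% and 40.3% of all PU.1 peaks in that range. Below a score of 50 it was 1 of 117 in MPs, 0 of 121 at 36 h and 1 of 116 in OCs, and in the whole lists 0.238%, 0.221% and 0.256%. With 200 or more, 3 of 3, 3 of 3 and 2 of 3 had MITF, and the OC peak without it was the Mxd1 locus at 204.1. The shares within a range of score were set side by side and not tested.

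**Figure D4:**
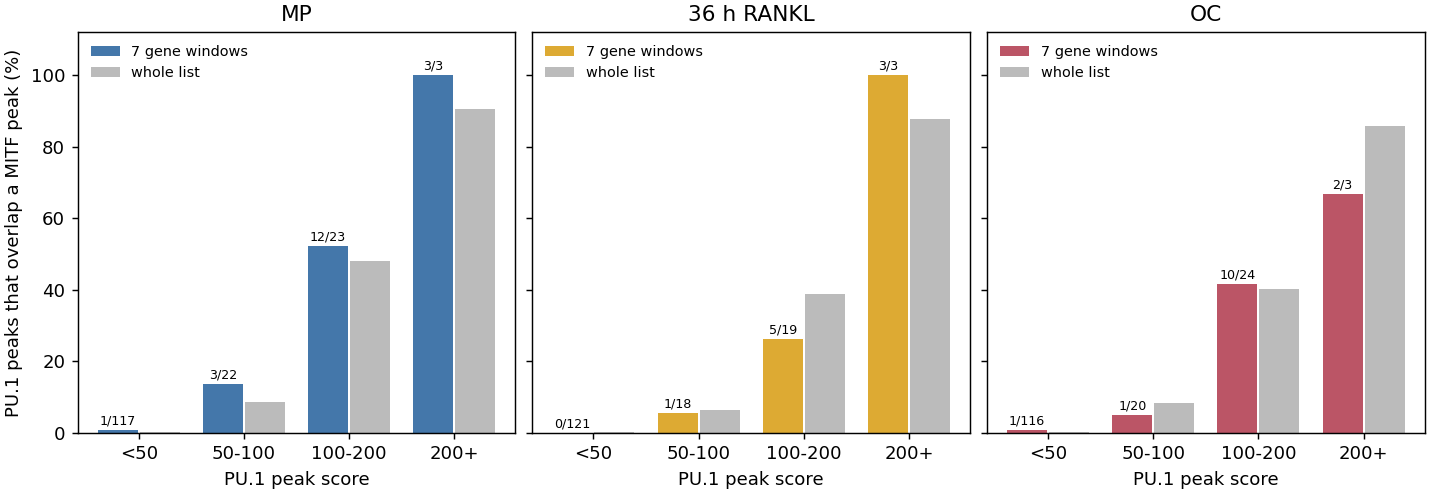
Percentage of PU.1 peaks that overlap a MITF peak of the same time, by PU.1 peak score, for the 7 gene windows (coloured, with counts above) and for the whole PU.1 list (grey), 1 panel per time. In both the percentage is under 1 below a score of 50, and at scores of 100 to 200 it is 52.2, 26.3 and 41.7 in the windows.

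Short motifs were counted within 100 bp of each locus centre, on both strands, as a description. GAGGAAGT was found in 45 of 224 window loci (20.1%) against 21.7% of all PU.1 loci. The shorter GAGGAA, which the longer motif contains, was found in 59.8% against 57.1%. At the 24 MITF loci of the windows the longer motif was found in 10 (41.7%) against 31.4% of all MITF loci, and the shorter in 16 (66.7%) against 67.2%. The E-box CANNTG was found in 11 of the 24 (45.8%) against 62.8%. Both specific forms are contained in CANNTG. The palindrome CACGTG was found in 1 of the 24 (4.17% against 2.93%), the Max locus. The form CACATG was found in 2 (8.33% against 14.7%), the Mxd1 locus and the Myc locus 71.1 kb downstream. Among the MITF loci of Myc with MITF at every time, the one at 407.1 kb held none of these letters.

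Of the 224 loci, 111 had PU.1 in all 3 lists, 43 in 2 and 70 in 1. The loci of all 3 lists had a median PU.1 score of 40.9 in MPs, and those of 1 list 11.9. PU.1 peaks without a PU.1 peak at the other time made up 43 of 165 in MPs against 36 h (26.1% in the whole list) and 39 of 161 at 36 h against MPs (21.7%). Between 36 h and OCs they were 36 of 161 (19.4%) and 38 of 163 (24.7%), and between MPs and OCs 37 of 165 (21.2%) and 35 of 163 (22%). For MITF, 9 of 19 MP peaks had no OC peak (47.5%) and 5 of 15 OC peaks no MP peak (36%). The window shares, 26.06%, 24.22%, 22.36%, 23.31%, 22.42% and 21.47% for PU.1 in this order and 47.37% and 33.33% for MITF, had intervals that held those of the whole lists. Scores were under 20 at 62 of the 70 loci called in 1 list alone. The highest of them scored 63.6 at 36 h and lay 281.7 kb downstream of the Myc TSS, and another scored 42.9 at 36 h, 84.0 kb from the Mxd1 TSS. Both had a PU.1 peak of another time close by, with the centres 393 and 201 bp apart. Those peaks did not overlap these loci, and whether PU.1 was at the same place at other times was not tested.

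For overlapping peaks the tags were compared between times with an exact two-sided binomial test, given the median ratio of all pairs, and a pair was called at an adjusted p under 0.05 and a change of at least 2-fold. The test compares 2 libraries and covers sampling noise only. From MPs to 36 h 1 of 122 PU.1 pairs was called lower, the Fancd2 locus of the Vhl window, against 0.712% of all pairs, and 16 (13.1%) had an unadjusted p under 0.05 against 10.9% of all pairs. From 36 h to OCs 0 of 125 were called (0.0707% of all pairs), and 10 (8%) had an unadjusted p under 0.05 in this exact test against 6.45% of all pairs. From MPs to OCs 0 of 128 were called (0.156% of all pairs), and 13 (10.2%) had an unadjusted p under 0.05 in this exact test against 7.84% of all pairs. The median log2 fold changes of the window pairs were 0.03, -0.02 and -0.03. For MITF, the exact test called 1 of 8 pairs lower from MPs to 36 h (5.38% of all pairs), a call that was lost with the 150 bp peaks of the 36 h list alone (0 called) and with the higher score limit (0 called), 0 of 8 changed from 36 h to OCs (9.66% of all pairs, 2 with an unadjusted p under 0.05), and 0 of 10 from MPs to OCs (0% of all pairs, 0 with an unadjusted p under 0.05). Pairs that were not called are not shown to be unchanged, since many held few tags.

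**Figure D5:**
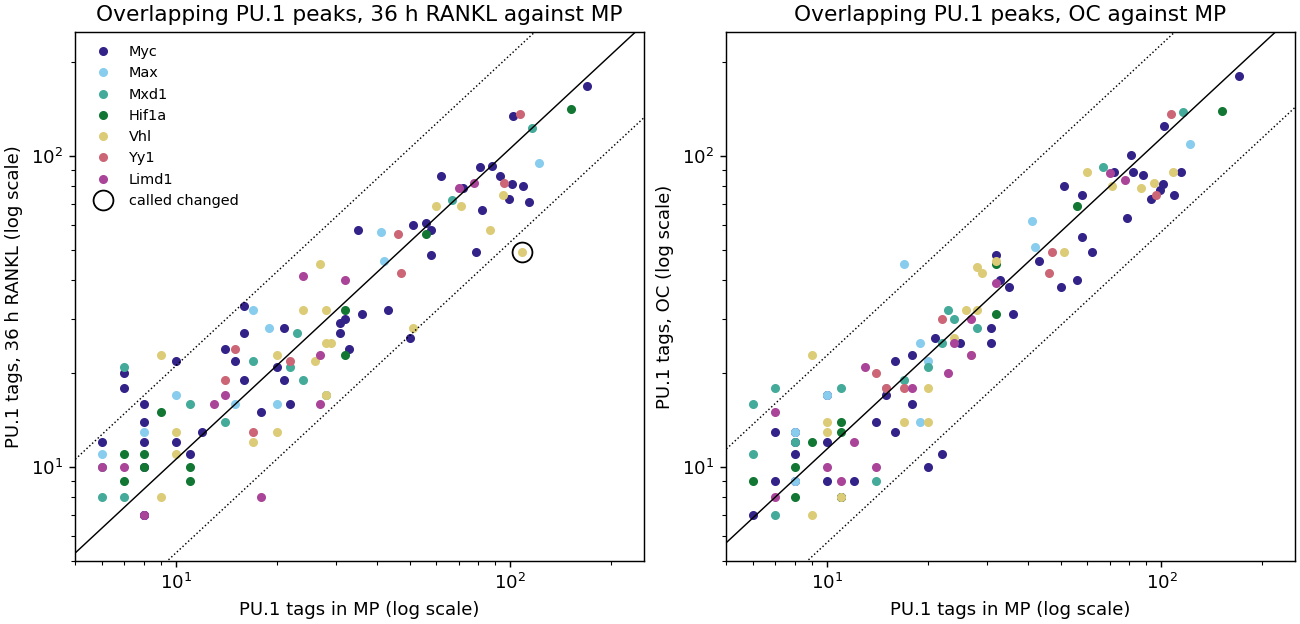
PU.1 tags of overlapping peaks in the 7 windows at 36 h (left) and in OCs (right) against those in MPs, on log scales, with the median ratio of all pairs (solid) and 2-fold limits (dotted). The only pair called, circled, is the Vhl locus in Fancd2 with 108 tags in MPs and 49 at 36 h.

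Neighbouring PU.1 peaks were joined, and the joined regions of each list were ranked by their summed score, as is done to find superenhancers. The region of the Vhl window, which spans Vhl and Irak2, ranked in the top 0.232% of regions in MPs, 0.35% at 36 h and 0.117% in OCs. It was 92.0 kb long in MPs and 91.1 kb at 36 h. In OCs it was 126.9 kb long and ran past the downstream limit of the window. The best Myc region, in a stretch of 47.1 kb reaching into Pvt1, had 9 peaks in MPs and ranked in the top 0.744%, 1.21% and 1.55%. Limd1 followed with 2.88%, 2.9% and 4.14%, and Yy1 with 5.16%, 4.28% and 4.29%. Mxd1 ranked in the top 7.04% in MPs and 4.59% in OCs with a region in and around the gene. At 36 h its best region, in the top 5.66%, was another one that began at the upstream limit of the window and lay mostly outside it. Hif1a (9.39%, 10.2% and 4.37%) and Max (14%, 9.36% and 17.9%) ranked lower in MPs. The Hif1a region spanned 11.1 kb with 2 peaks in MPs and 39.0 kb with 7 peaks in OCs, and its highest locus held 152 and 140 tags. The longer region depended on a peak called in OCs alone at -11.6 kb, with a score of 13.2 near the lowest. That peak bridged a gap wider than the joining distance, to peaks at -2.5 kb and at the TSS. These already scored 54.6 and 95.5 in MPs. Ranks have no replicate check. They set the best region of each gene against all single regions of the list, and not against the best regions of other genes. They therefore do not show that these genes stand out among genes.

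The related genes fixed for comparison, 33 in all, had a median of 16, 14 and 16 PU.1 peaks within 100 kb in MPs, at 36 h and in OCs, and the 7 genes with the same flanks 17, 16 and 17. MITF was called near 24, 20 and 18 of the 33 and near 7, 5 and 6 of the 7, and near 46.3%, 36.2% and 42.1% of the 22367 coding genes. In the MYC/MAX group 9, 8 and 7 of 10 genes had MITF, with 2, 2 and 3 peaks at Mnt, a MAX-binding repressor, and 0 at Mycn. Mycl had 3, 1 and 5, and Mlxipl 2, 1 and 0. In the hypoxia group it was 7, 6 and 5 of 12. Arnt, the partner of HIF1A, had 1, 2 and 3 peaks, whereas Eloc had 3, 1 and 1 and Arnt2 1, 0 and 0. Of the 4 hydroxylase genes Egln1 had 1, 0 and 0, Egln2 1 at each time, and Egln3 and Hif1an none. Among YY1 partners 5, 3 and 4 of 7 genes had MITF, and Zfp42, a YY1 relative of pluripotent cells, had neither factor. Traf6, grouped with LIMD1, had 2 MITF peaks at each time and 21, 20 and 21 PU.1 peaks.

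Of the loci next to the window limits, that of Max had the highest score at 36 h and in OCs. It was the last inside, 2.05 kb from the upstream limit, and scored 69.9, 84.3 and 91.0. At Yy1 the last inside, 7.25 kb from the upstream limit, was the MITF locus in Degs2, the highest in MPs with 78.5. The last locus inside the Myc limit, 3.27 kb from it, scored 17.1 in MPs and 13.2 in OCs, and the first outside, 6.15 kb beyond, 11.8 at 36 h. At Limd1 a locus 0.091 kb outside the downstream limit had PU.1 scores of 35.8, 14.8 and 27.9 and a MITF score of 10.3 in OCs, and the last inside, 12 kb from the limit, had 11.9, 14.8 and 22.0. At Vhl the last inside, 0.117 kb from the downstream limit, scored 46.1, 66.5 and 33.8.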

How the data were processed

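The data are peak lists of 7 ChIP-Seq libraries, 1 per condition. Per the labels and the study's methods, base calls were made with CASAVA 1.8, reads were mapped to mm9 with Bowtie2, and peaks were called with HOMER. Versions of the last 2 tools, the settings and any duplicate filter are not given in the sources used here. The authors deposited for each peak a position and a score, which is its tag number scaled to a common library size.

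Here scores were divided by the largest step of which all were whole multiples (to within 0.0501), which gave 6 to 252 tags per PU.1 peak. Gene positions came from the GENCODE annotation of mm9, and sequences from that genome, in which 260 peaks on 8 unplaced names were not read. Peaks were shared when they overlapped by at least 1 bp. Tags of overlapping peaks were compared by an exact two-sided binomial test with Benjamini-Hochberg adjustment over all pairs of the lists. Shares have 95% Wilson intervals. The authors' nearest-gene columns were not used. The test was checked on simulated tags with sampling noise only and large planted changes at peaks of many tags. Smaller changes, changes at weak peaks and variation between libraries were not covered by that check. Python 3.11.15, numpy 2.4.6, scipy 1.17.1 and matplotlib 3.10.9 were used.

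Loci named are, for each gene, the highest PU.1 locus, the highest within 1 kb of a TSS, those with MITF (at Myc the 6 with the highest score), those with a called pair, and the one nearest a ChIP-qPCR segment of the study, found by matching its primers to mm9. The 7 genes, the 33 related genes, the tests and the alternatives were chosen with earlier results of these data known. Alternatives were a higher score limit, other windows, other definitions of overlap, lists of equal length, another ratio and fold limit, and another joining distance. Leaving out peaks that overlap an IgG peak was a further alternative.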

Additional observations from a re-analysis of the deposited data

How the results depend on the processing

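Of 129 alternatives, 99 left a value within its limits and 30 moved it. Some of the 99 could not move a value. Leaving out peaks that overlap an IgG peak removed nothing, as 0 of 224 loci overlapped one. Lists of equal length left the 36 h values as they were, as the 36 h lists were the shortest. The limits were also wide, since 123 PU.1 peaks in MPs without the long Myc flank, in place of 165, counted as within them. Keeping peaks of at least 2 times the lowest score left 98, 100 and 98 PU.1 peaks in MPs, at 36 h and in OCs and 3, 6 and 4 MITF peaks, put the share of PU.1 peaks with MITF at 3.061% in MPs and 3.061% in OCs and the share of PU.1 MP peaks with an OC peak at 86.73%, and left 0 called MITF pairs from MPs to 36 h. Windows of 10 kb held 34, 30 and 32 PU.1 and 4, 1 and 3 MITF peaks, and peaks whose nearest coding TSS is the gene were 103, 102 and 99. Lists of equal length gave 12 MITF peaks in MPs, and without the long Myc flank the 7 windows held 6 at 36 h. With the ratio from library size, 2 PU.1 and 2 MITF pairs were called from MPs to 36 h and 3 MITF pairs from 36 h to OCs. Without a fold limit these were 2, 2 and 1. Windows of 50 kb left 0 PU.1 pairs, as the Vhl locus lies outside them. MITF 36 h peaks of 150 bp only, an alternative added after the data were seen, left 0 MITF pairs from MPs to 36 h. Joining at 6 kb put 6 genes in the top 5% of regions in MPs in place of 3. The share of all coding genes with such a region was not computed, so neither count shows an excess at these genes. No paired analysis was possible because the labels carry no replicate numbers and each condition has 1 library. Depth limits the lists to loci of 6 or more tags, and most loci called at 1 time lay near that limit.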
